A study of Homo sapiens with 14 samples.

Results

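Antisense lncRNAs are long noncoding RNA genes named after the gene on the opposite strand. They were taken as the genes that GENCODE release 44 types as lncRNA and whose symbol ends in -AS with or without a number, and the reads of all their transcripts were summed. This gave 1838 of the 60876 genes, with 1833 distinct symbols, of the 17547 lncRNA genes in the annotation. A read was assigned to 1268 of them in at least 1 library and none to the other 570. The low count filter kept 430, and every test below is on these 430 among the 15426 genes that passed.

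Antisense transcripts are made by Pol II from the strand opposite a protein-coding gene, often from the same CpG-rich promoter region, and their levels are usually far below those of mRNAs. Some are known to act on the gene they face, through chromatin or by pairing with its RNA, and others act elsewhere in the cell, while for most no role is known. Many are short-lived and stay in the nucleus.

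MDA-MB-231 is a triple negative, mesenchymal human breast cancer cell line. Poly(A)-selected RNA was sequenced from untreated control cells, which the study also calls a DMSO control, and from cells given 5 µM RBI2 or 5 µM CX-5461 with sample labels of 10, 30 or 120 min. RBI2 is a small molecule that lowers pre-rRNA levels. The study set it beside CX-5461, a compound that acts against transcription by Pol I, as its positive control. There were 2 libraries in each of the 7 groups. The pair of control libraries is shared by all 6 comparisons with the control. No source used here says that the replicates were separate cultures, so p-values measure only the spread between these libraries.

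Library totals ran from 14112299 to 24849354 estimated reads. Mitochondrial genes took 8.14% to 11.3% of reads in 13 libraries and 20.6% in control replicate 2, and the calls of members and the medians of the class were recomputed without it. The line's own markers were present in all libraries, with VIM between 2779 and 3387 CPM (reads per library total after TMM scaling), CD44 between 870 and 1252 and AXL between 1196 and 1592. PGR had no reads, ESR1 stayed at or below 0.236 CPM and CDH1 at or below 0.295, while EPCAM, which was listed as low in this line, lay between 9.17 and 14.3. The summed markers of leukocytes reached at most 0.124 CPM, of endothelium 0.406 and of fibroblasts 0.507.

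The promoters below belong to the 4 members above 1 CPM in both RBI2 120 min libraries whose difference between RBI2 and CX-5461 at 120 min was called under each of the 6 other ways of analysing the same 14 libraries or the 4 compared, and to KCTD21-AS1, which fell together with its sense gene. Of these 4, PRR7-AS1 was also called there whichever library was left out and the other 3 were not. Each is the 300 base RefSeq window (GRCh38.p14) from 250 bases before to 50 bases after the annotated start, 5′ to 3′ on the gene's own strand. Capitals mark matches to 5 motifs searched on either strand. The letters of the AP-1 site were TGANTCA and those of the ETS site were CGGAAG, with N for any base. A GC box was searched as GGGCGG and the TATA box as TATAAA, and the CCAAT box by the letters of its name. No match overlapped another in these windows. They are FBXL19-AS1 at chr16:30923220-30923519 (minus strand), PRR7-AS1 at chr5:177447895-177448194 (minus), SLC26A4-AS1 at chr7:107661749-107662048 (minus), PCGF3-AS1 at chr4:781800-782099 (minus) and KCTD21-AS1 at chr11:78139543-78139842 (plus).
FBXL19-AS1: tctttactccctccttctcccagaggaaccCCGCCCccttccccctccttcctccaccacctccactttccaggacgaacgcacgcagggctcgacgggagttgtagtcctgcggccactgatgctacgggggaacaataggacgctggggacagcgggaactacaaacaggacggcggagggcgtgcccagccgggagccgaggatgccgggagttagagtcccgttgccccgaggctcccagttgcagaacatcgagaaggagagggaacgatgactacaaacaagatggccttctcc
PRR7-AS1: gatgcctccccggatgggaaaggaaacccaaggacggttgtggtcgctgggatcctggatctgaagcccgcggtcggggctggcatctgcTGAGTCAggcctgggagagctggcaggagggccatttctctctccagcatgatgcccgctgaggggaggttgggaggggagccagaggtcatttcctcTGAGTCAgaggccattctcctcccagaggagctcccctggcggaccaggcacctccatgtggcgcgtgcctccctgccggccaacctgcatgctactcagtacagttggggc
SLC26A4-AS1: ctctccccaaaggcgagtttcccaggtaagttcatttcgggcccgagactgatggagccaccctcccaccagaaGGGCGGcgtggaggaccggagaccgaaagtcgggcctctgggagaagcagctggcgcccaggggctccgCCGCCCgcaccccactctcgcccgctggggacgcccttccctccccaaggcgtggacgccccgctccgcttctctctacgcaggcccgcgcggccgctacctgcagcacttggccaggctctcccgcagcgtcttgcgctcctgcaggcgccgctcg
PCGF3-AS1: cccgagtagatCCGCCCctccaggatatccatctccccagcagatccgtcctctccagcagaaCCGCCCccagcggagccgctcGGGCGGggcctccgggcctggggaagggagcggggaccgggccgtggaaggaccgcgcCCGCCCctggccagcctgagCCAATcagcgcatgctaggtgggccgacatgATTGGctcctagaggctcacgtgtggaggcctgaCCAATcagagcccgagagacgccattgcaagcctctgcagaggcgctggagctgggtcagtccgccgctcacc
KCTD21-AS1: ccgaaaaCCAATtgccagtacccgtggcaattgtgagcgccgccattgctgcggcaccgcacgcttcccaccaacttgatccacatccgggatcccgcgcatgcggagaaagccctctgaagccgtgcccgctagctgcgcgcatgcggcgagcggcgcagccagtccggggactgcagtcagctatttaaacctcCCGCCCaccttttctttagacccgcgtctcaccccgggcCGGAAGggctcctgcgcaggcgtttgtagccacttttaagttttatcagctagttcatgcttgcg

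The PRR7-AS1 window held 2 AP-1 matches and no other motif, and that of SLC26A4-AS1 held 2 GC boxes. The PCGF3-AS1 window held 3 CCAAT boxes and 4 GC boxes, and KCTD21-AS1 1 of each beside 1 ETS match. FBXL19-AS1 had 1 GC box and shared 198 of its bases with a promoter window of FBXL19, while PRR7-AS1 shared 120 bases with a window of PRR7. The RefSeq start of SLC26A4-AS1 lay 406 bases downstream of the GENCODE start. A window was found for 331 of the 430 tested members. Among the 400 windows of those, 58.8% held a GC box against 45% of all 35116 windows in the table, 28.7% an ETS site against 19.5%, 28.7% a CCAAT box against 34.6%, 6.75% a TATA box against 11.5% and 6.0% an AP-1 site against 7.71%. In the 590 windows of their sense genes the shares were 57.6%, 23.2%, 32.7%, 6.95% and 4.75% in that order. The GC box and TATA box shares were thus near those of the sense genes. The median GC content of the members' windows was 64.3%, near the 63.7% of their sense genes' windows and above the 58.7% of all windows. Of the 19 members that were higher with RBI2 at 120 min in either comparison, 16 had a window, 17 windows in all. Of these 17, 9 held a GC box, 4 a CCAAT box, 3 a TATA box, 2 an ETS site and 2 an AP-1 site.

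Most tested members lay across their sense gene. Exons of 331 (77%) overlapped exons of the sense gene on the other strand. Another 67 (15.6%) overlapped the span of the sense gene without sharing exon bases, and 27 (6.28%) lay upstream of its start without overlap. The start of 130 of the 426 on the opposite strand (30.5%) was within 1000 bases of the sense start, while the median distance was 6936.5 bases. The sense gene coded for protein in 424 cases. Exons of 55 members also overlapped another gene on the same strand, so their reads may be shared. The libraries were stranded, but the sources used here do not say whether strand was used in assigning reads. Of 14 members with at least 80% of their exonic bases inside exons of a sense gene at 20 TPM or more, the deposited transcript level scaled for length, 8 were listed at under 1% of the sense level, the median was 0.687% and the highest 6.04%.

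Antisense lncRNAs were rare RNAs in these cells, with a handful of abundant exceptions. In TPM the median tested member stood at 1.47 and the median sense gene at 10.9 over 428 pairs, and the antisense RNA was above its sense gene in 123 pairs (28.7%). Members under the low count filter are left out of these levels. Sense genes were not filtered, and in 66 pairs the sense gene was under the filter. The level of a member said little about that of its sense gene, with a Spearman rank correlation of 0.06 across pairs, which are not independent replicates. In CPM, 178 tested members averaged under 1 and 73 at least 5.

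**Figure D1:**
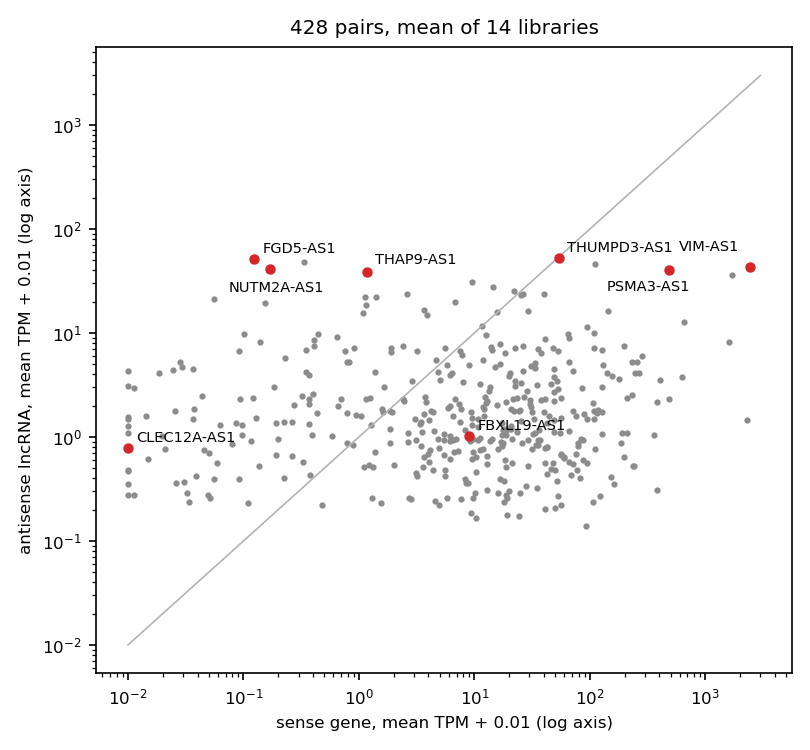
Mean level over the 14 libraries of each tested antisense lncRNA (vertical axis) against its sense gene (horizontal axis), in TPM + 0.01 on log axes, 1 point for each of 428 pairs; the line marks equal levels. FGD5-AS1, NUTM2A-AS1 and THAP9-AS1 stand far above the line, THUMPD3-AS1 lies on it, and VIM-AS1 and PSMA3-AS1 stand far below it.

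FGD5-AS1 was the most abundant member by reads, between 89.2 and 125 CPM, beside at most 0.579 CPM of FGD5. OIP5-AS1, known as cyrano and for its very conserved site for miR-7, ran from 44.4 to 69.7 CPM beside 9.51 to 19.0 for OIP5, a centromere protein of the Mis18 complex. Per length OIP5-AS1 was not above OIP5, with a mean of 23.1 TPM beside 25.4. THAP9-AS1 (38.1 to 55.0 CPM) and PAX8-AS1 (41.4 to 49.9) stood above THAP9 (1.48 to 2.97) and the transcription factor PAX8 (1.58 to 3.64).

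PSMA3-AS1 ran from 29.5 to 48.1 CPM below PSMA3, a proteasome subunit, at 166 to 195. NUTM2A-AS1 (31.6 to 44 CPM), SVIL-AS1 (25.4 to 34.2) and VPS9D1-AS1 (22.1 to 35.6) were among the 10 most abundant too. Per length, the highest level was that of THUMPD3-AS1, with 52.8 TPM beside 53.6 for THUMPD3, a tRNA methyltransferase. GABPB1-AS1, described with the calls, completes these 10. VIM-AS1, below them, was at 21.4 to 32.9 CPM beside VIM, the intermediate filament of mesenchymal cells. The 10 members with the most reads in a library held between 24.5% and 28.4% of all its member reads. Exons of OIP5-AS1, THAP9-AS1, PSMA3-AS1, SVIL-AS1, THUMPD3-AS1 and GABPB1-AS1 overlap other genes on their own strand.

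As a class, antisense lncRNAs took a small share of the reads, lowest with CX-5461 and highest with RBI2 at 120 min. Of the reads outside mitochondrial genes, the controls gave members 0.198% and 0.206%. In order of labelled time, CX-5461 gave 0.182% and 0.178%, then 0.192% in both libraries, then 0.188% and 0.182%. RBI2 gave 0.192% and 0.199%, then 0.209% and 0.213%, then 0.219% and 0.220%. All 6 CX-5461 libraries were below both controls and the RBI2 libraries of 30 and 120 min above them. Other lncRNAs had the same ends, from 1.09% and 0.985% with CX-5461 at 10 min to 1.56% in both RBI2 libraries at 120 min, around 1.27% and 1.26% in the controls. With mitochondrial genes counted, the controls gave members 0.179% and 0.164% of reads, the second of these within the 0.163% to 0.176% of the CX-5461 libraries. In bulk RNA a share of reads cannot tell less of one RNA from more of another.

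**Figure D2:**
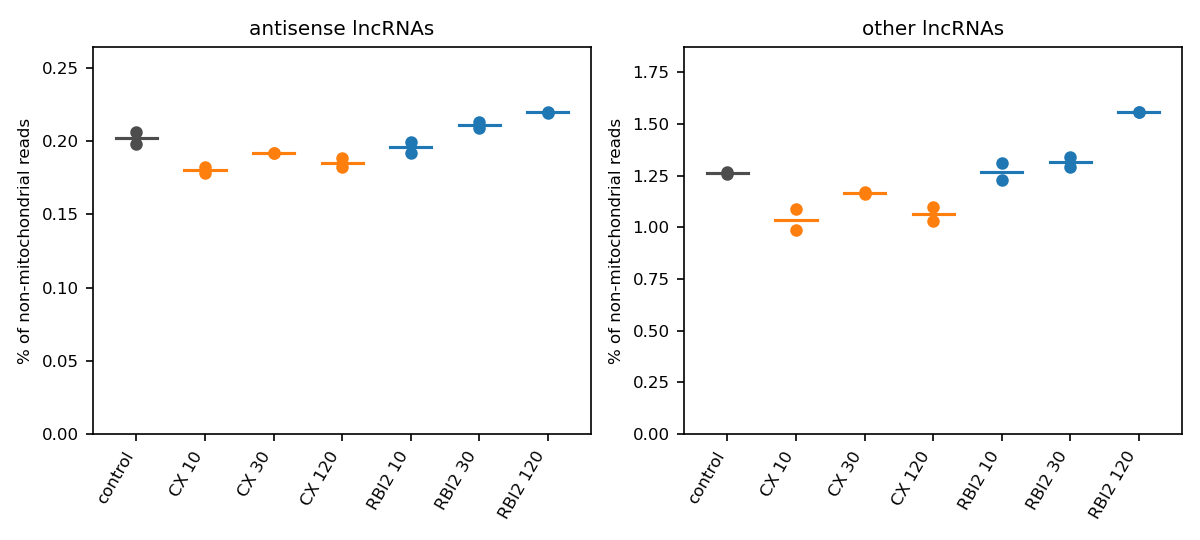
Share of non-mitochondrial reads (%, vertical axis from 0) assigned to antisense lncRNAs and to all other lncRNAs in each library (points), with the group mean (bars); CX is CX-5461 and numbers are labelled minutes. The RBI2 120 min libraries are highest in both panels, at 0.219% and 0.220% on the left and 1.56% on the right.

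Fold changes of single members were spread around medians that differed between the compounds. Compared with the control, the median log2 fold change over the 430 members with RBI2 was −0.04 (10 min), 0.05 (30 min) and 0.13 (120 min), beside 0.01, −0.01 and 0.01 over all genes. With CX-5461 it was −0.14, −0.11 and −0.12, beside −0.04, −0.05 and 0.06. Set directly against CX-5461, RBI2 gave 0.09, 0.13 and 0.25, where all genes stood at 0.01 each time. At 120 min 321 members (74.7%) were higher with RBI2 than with CX-5461, against 50.7% of all genes, in 193 (44.9%) both RBI2 libraries lay above both CX-5461 libraries, against 30.7% of all genes, and in 41 (9.53%) both lay below, against 33% of all genes. Other lncRNAs moved along, with 0.31 in that comparison and −0.23 for CX-5461 at 10 min, so the shift was shared by lncRNAs and was not tested as a property of antisense genes. Single libraries moved some of these medians. Leaving out RBI2 10 min replicate 1 turned the RBI2 10 min median to 0.02 and leaving out replicate 2 took it to −0.10, and the difference between compounds at 10 min then ran to 0.15 and 0.04. Without control replicate 1 the RBI2 30 min median was 0.01, and without control replicate 2 that of CX-5461 at 30 min was −0.04, and without CX-5461 120 min replicate 1 that of CX-5461 at 120 min was −0.18. For RBI2 against CX-5461 at 30 and 120 min the medians stayed within 0.09 to 0.35 whichever library was left out. With an offset for transcript length the RBI2 medians against the control were 0.00, 0.09 and 0.16 in order of time, those of CX-5461 −0.09, −0.04 and −0.07, and those of RBI2 against CX-5461 0.07, 0.13 and 0.22.

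**Figure D3:**
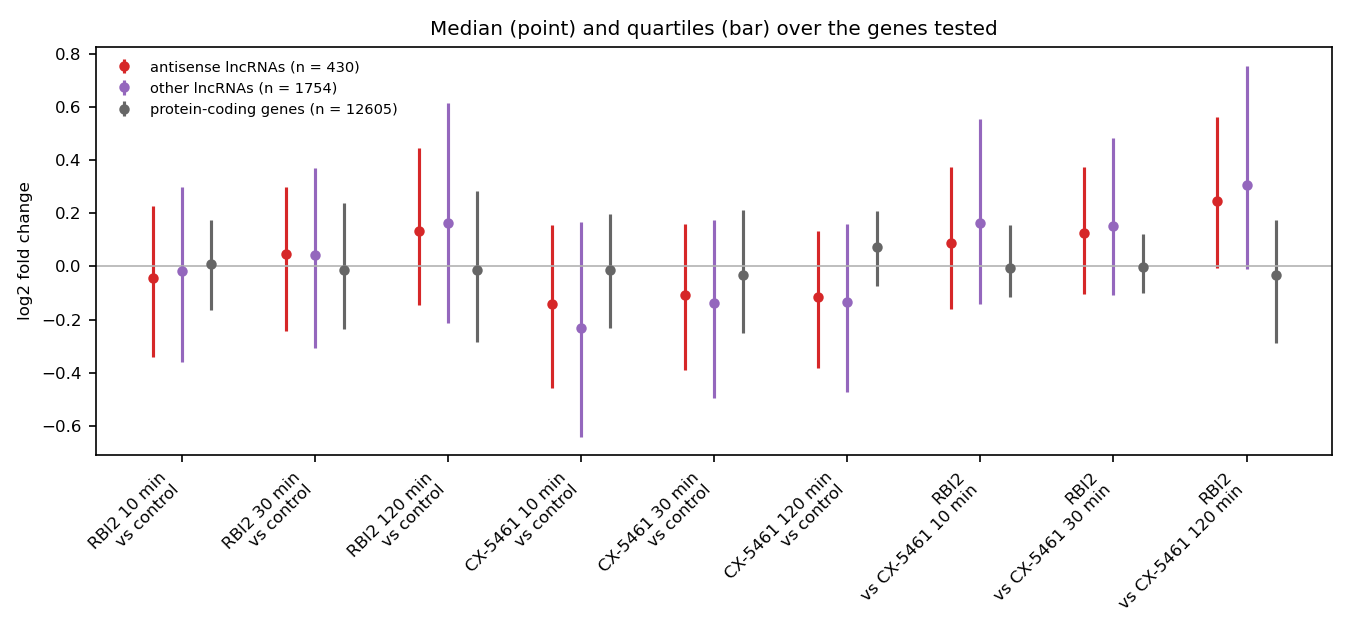
Median (points) and quartiles (bars) of the log2 fold change in each of the 9 comparisons for 430 antisense lncRNAs, 1754 other lncRNAs and 12605 protein-coding genes. The antisense median runs from −0.14 (CX-5461 10 min vs control) to 0.25 (RBI2 vs CX-5461 120 min). In the latter it lies near other lncRNAs (0.31), away from protein-coding genes (−0.03). For RBI2 vs CX-5461 10 min it lies between them, at 0.09 beside 0.16 and −0.005.

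A member is called here where edgeR's quasi-likelihood test gave an adjusted p under 0.05 over all genes and the log2 fold change was at least 1 in size. RBI2 at 120 min raised 9 members and lowered 2 (2.56% of 430) where 1.82% of all genes and 4.33% of other lncRNAs were called, with 1.42% of all genes higher and 0.395% lower. The members that rose were FBXL19-AS1, PRR7-AS1, CLEC12A-AS1, KIF9-AS1, SLFNL1-AS1 and SYT15-AS1, with CCDC183-AS1, FRMD6-AS2 and SLC7A14-AS1, which are named only to complete the count, after their values were seen. SLC16A4-AS1 and PLCE1-AS1 fell. None of the 11 averaged 5 CPM or more over all 14 libraries. With an offset for the mean effective transcript length 1 of the 11 calls stood, that of FBXL19-AS1 (edgeR adjusted p = 0.0235), and the others had adjusted p from 0.0677 to 0.194, where 0.532% of all genes were called. In a fit of only the 4 libraries compared none of the 11 was called (adjusted p = 0.322), nor was any other gene. DESeq2 ended the calls of PLCE1-AS1 (adjusted p = 0.112), CCDC183-AS1 (0.0824), FRMD6-AS2 (0.0972) and SLC7A14-AS1 (0.0603), and the replicate number as a block those of PLCE1-AS1 (0.0551) and CCDC183-AS1 (0.0587). Without control replicate 1 the count was 26, where 8.34% of all genes were called, and without control replicate 2 it was 4 (1.08% of all genes). Without RBI2 120 min replicate 1 it was 0 and without RBI2 120 min replicate 2 it was 4, where 0.188% and 0.525% of all genes were called.

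FBXL19-AS1 (ENSG00000260852, chr16:30919319-30923269, minus strand) starts 214 bases from the start of FBXL19, the gene of an F-box protein that binds CpG islands, and overlaps its exons. It was at 2.36 and 2.80 CPM in the controls, and with RBI2 at 2.31 and 2.97 (10 min), 4.07 and 4.16 (30 min) and 6.61 and 5.58 (120 min). CX-5461 gave 1.56 and 2.06, then 3.26 and 3.82, then 2.65 and 2.61. Both RBI2 groups from 30 min on were above every other library, with the highest values at 120 min. The log2 difference from the control at 120 min was 1.25 ± 0.20 (SE, adjusted p = 0.00771), and from CX-5461 at 120 min 1.21 ± 0.19 (adjusted p = 0.00733).

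FBXL19 itself was at 20.6 and 11 CPM in the controls, 29.4 and 27.3 with RBI2 at 30 min and 33.6 and 30.6 at 120 min. All other treated libraries lay between 18.8 and 23.4. Its log2 change at 120 min was 1.01 ± 0.22 (adjusted p = 0.0167). The lower control is the library rich in mitochondrial reads, and without it the change was 0.63, under the fold limit (adjusted p = 0.0158). Without RBI2 120 min replicate 1 or 2 the adjusted p was 0.105 or 0.0648. Its difference from CX-5461 at 120 min was 0.61 (adjusted p = 0.0745). This was the one pair in which both strands were called with RBI2. The antisense call was lost without RBI2 120 min replicate 1 (adjusted p = 0.0651), and against CX-5461 without each of 3 libraries (adjusted p from 0.0535 to 0.0554).

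PRR7-AS1 (ENSG00000246334, chr5:177438503-177447982, minus strand) starts 1537 bases from the start of PRR7, the gene of a membrane adaptor protein. It overlaps the span of PRR7 without sharing exon bases. PRR7-AS1 was at 2.73 and 2.56 CPM in the controls and at 1.70 and 1.85, 4.07 and 4.42, and 6.20 and 5.44 with RBI2 at the 3 times. With CX-5461 it was at 1.40 and 1.56, 3.46 and 2.42, and 1.83 and 1.91. RBI2 libraries thus lay below the controls at 10 min and above them at 30 and 120 min. The change at 120 min was 1.13 ± 0.19 (adjusted p = 0.00937), which missed the threshold without RBI2 120 min replicate 1 (adjusted p = 0.0729). The difference from CX-5461 at 120 min was 1.63 ± 0.20 (adjusted p = 0.0053) and was called whichever of the 14 libraries was left out. PRR7 stayed between 7.51 and 15.8 CPM, and its log2 changes in these comparisons were 0.35 (adjusted p = 0.2) and 0.13 (adjusted p = 0.702).

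**Figure D4:**
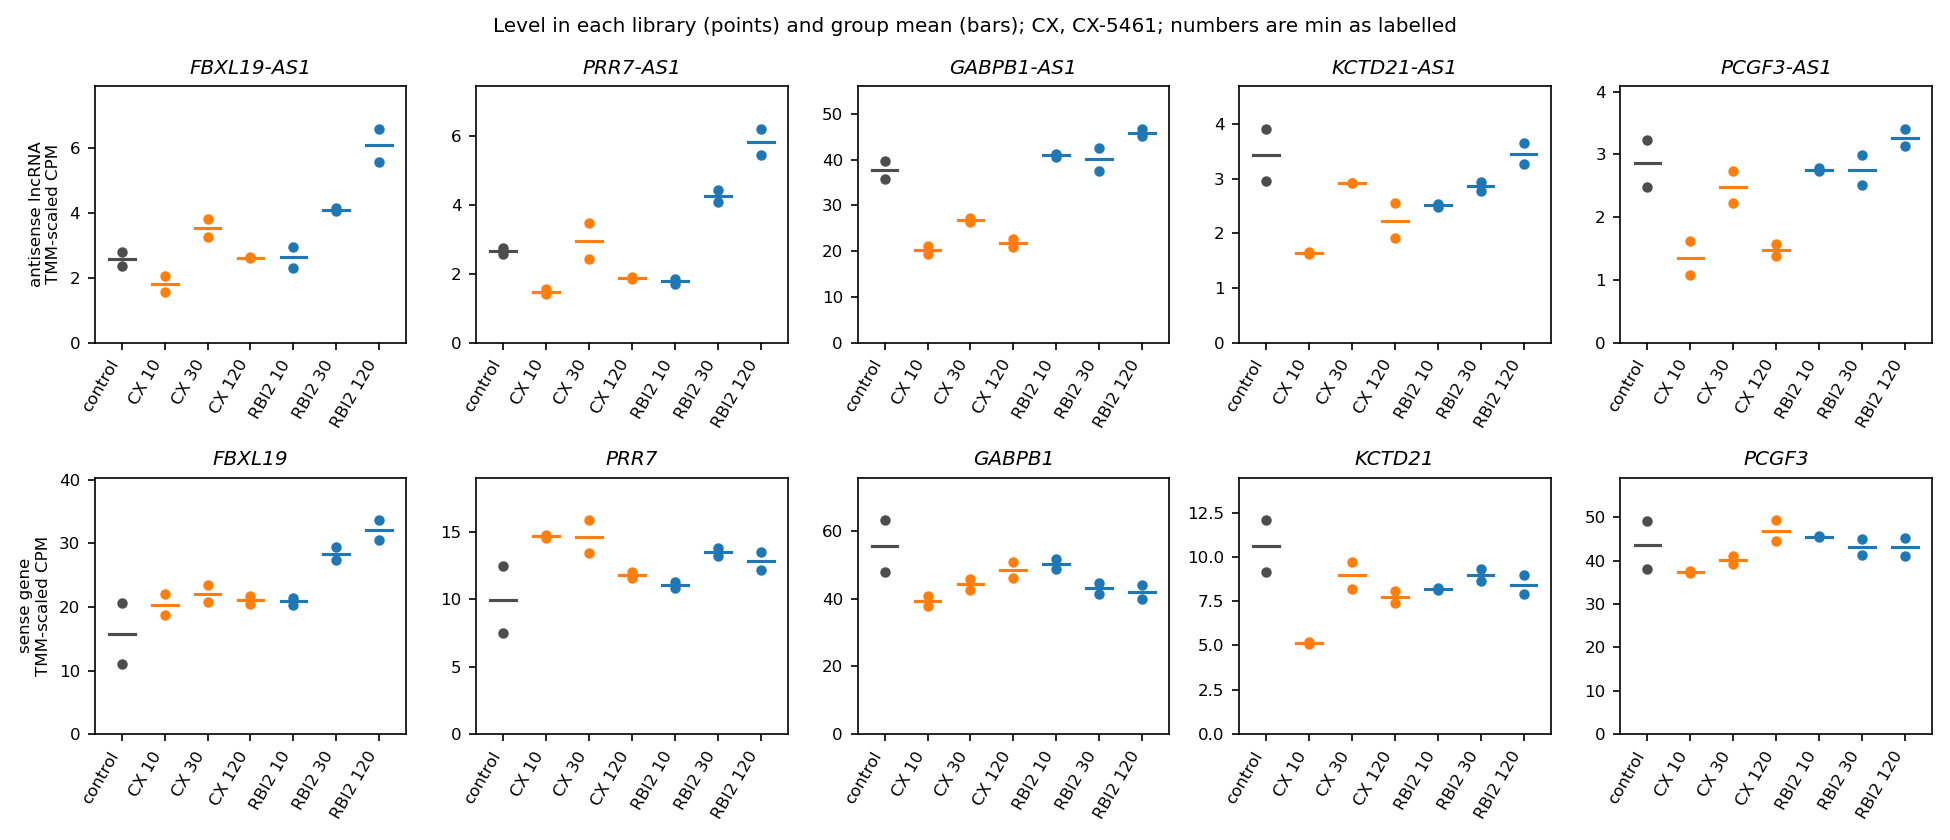
TMM-scaled CPM (vertical axes from 0) of 5 antisense lncRNAs (top) and their sense genes (bottom) in each library (points), with the group mean (bars); CX is CX-5461 and numbers are labelled minutes. FBXL19-AS1 and PRR7-AS1 are highest with RBI2 at 120 min, GABPB1-AS1 is lower in all CX-5461 libraries than in any other, and KCTD21-AS1 and KCTD21 are both lowest with CX-5461 at 10 min.

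Several members rose beside a sense gene that was hardly read at all. CLEC12A-AS1, facing a myeloid lectin receptor gene without a read in any library, was at 1.62 and 0.320 CPM in the controls (26 and 4 reads) and at 4.01 and 4.28 with RBI2 at 120 min (68 and 59 reads). Its change was 2.03 ± 0.47 (adjusted p = 0.0209), lost without either RBI2 120 min library (adjusted p = 0.0825 and 0.0966). SLFNL1-AS1 went from 1.12 and 0.719 CPM to 3.36 and 2.46, or 1.64 ± 0.37 (adjusted p = 0.0193), beside SLFNL1 at up to 0.236 CPM. In both, chosen as called here, the RBI2 120 min libraries lay above both controls, as they did in 27.2% of all genes.

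KIF9-AS1 and SYT15-AS1 rose beside expressed sense genes that were not called. KIF9-AS1 was at 1.99 and 1.60 CPM in the controls and 3.95 and 3.99 with RBI2 at 120 min (1.13 ± 0.32, adjusted p = 0.0356), and KIF9, a kinesin, changed by 0.11 (adjusted p = 0.709). SYT15-AS1 was at 1.49 and 0.959 and then at 2.54 and 3.26 CPM (1.21 ± 0.32, adjusted p = 0.0302), and SYT15, of the synaptotagmin family, changed by 0.01 (adjusted p = 0.98). The CX-5461 120 min libraries of KIF9-AS1, at 2.53 and 3.82 CPM, lay above its controls as well. The calls of KIF9-AS1, SYT15-AS1 and SLFNL1-AS1 were lost without each of 5, 3 and 3 libraries, with adjusted p from 0.0519 to 0.142, from 0.0931 to 0.127 and from 0.0537 to 0.123.

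The 2 members that fell with RBI2 had lower mean values with CX-5461 as well. SLC16A4-AS1 lies within introns of SLC16A4, a monocarboxylate transporter family gene read at no more than 0.649 CPM. It was at 4.04 and 2.88 CPM in the controls, 3.10 and 1.85, 1.73 and 1.52, and 1.06 and 0.942 with RBI2, and 2.69 and 2.50, 1.66 and 1.84, and 1.39 and 1.10 with CX-5461. Each treated group averaged less than the controls and the lowest values were at 120 min. The log2 change with RBI2 at 120 min was −1.78 ± 0.30 (adjusted p = 0.00863), lost without RBI2 120 min replicate 1 (adjusted p = 0.0735) or 2 (0.0575). With CX-5461 at 120 min it was −1.47 (adjusted p = 0.209).

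PLCE1-AS1, inside the gene of phospholipase C epsilon, was at 1.24 and 1.52 CPM in the controls and 0.531 and 0.435 with RBI2 at 120 min. The lowest group mean, 0.369 CPM, belonged to another treated group, and the lowest library stood at 0.182. The change was −1.49 ± 0.44 (adjusted p = 0.0421), lost without each of 11 of the 14 libraries (adjusted p from 0.0533 to 0.163). PLCE1 changed by 0.38 (adjusted p = 0.338).

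RBI2 at 10 and at 30 min called no member, where 0.0778% and 0.0389% of all genes were called, and DESeq2 called none either. With an unadjusted p under 0.05 and the same fold, 13 and 14 members passed, where 1.94% and 2.21% of all genes did. Without control replicate 1 edgeR called 15 and 20, where 4.45% and 6.66% of all genes were called.

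With CX-5461 the calls were at the first labelled time. At 10 min it raised MSANTD2-AS1 and MAP3K4-AS1 and lowered KCTD21-AS1, PCGF3-AS1 and LACTB2-AS1, which is 1.16% of members where 1.64% of all genes were called, 0.752% higher and 0.888% lower. DESeq2 ended the calls of KCTD21-AS1 (adjusted p = 0.0553), PCGF3-AS1 (0.0858) and MAP3K4-AS1 (0.122). The length offset ended the calls of PCGF3-AS1 (0.117) and MAP3K4-AS1 (0.0915), and a fit of only the 4 libraries compared ended all 5 (edgeR adjusted p from 0.375 to 0.535). With an unadjusted p under 0.05 and the fold 29 passed, where 4.19% of all genes did, and with RBI2 at 120 min 21, where 3.65% did. The count was 28 without control replicate 1 (8.48% of all genes), 0 without CX-5461 10 min replicate 1 (0.849%) and 1 without CX-5461 10 min replicate 2 (0.972%). At 30 and at 120 min no member was called by edgeR or DESeq2, where 0% and 0.0454% of all genes were, and 18 and 14 members passed the unadjusted p with the fold, where 2.15% and 1.87% of all genes did. Without control replicate 1 edgeR called 22 and 12 there, where 7.16% and 3.72% of all genes were called, and without CX-5461 120 min replicate 1 it called 1 at 120 min.

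KCTD21-AS1 (ENSG00000246174, chr11:78139756-78175323, plus strand) starts 48870 bases from the start of KCTD21, a gene of the family of cullin 3 ligase adaptors, with 24.8% of its exonic bases inside that gene's exons. It was at 3.92 and 2.96 CPM in the controls, and with CX-5461 at 1.62 and 1.67 (10 min), 2.93 and 2.93 (30 min) and 1.92 and 2.55 (120 min). RBI2 libraries ran from 2.49 to 3.66. KCTD21 was at 9.14 and 12.1 in the controls, 5.17 and 5.06 with CX-5461 at 10 min and between 7.38 and 9.72 in the other treated libraries. Both strands were lowest in the 2 CX-5461 10 min libraries, with changes of −1.07 ± 0.21 (adjusted p = 0.0162) and −1.04 ± 0.15 (adjusted p = 0.00399). The antisense call was lost without either CX-5461 10 min library (adjusted p = 0.127 and 0.122), and without control replicate 1 the change was −0.84. For KCTD21 the change was −0.85 without control replicate 2, under the fold limit (adjusted p = 0.0094).

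PCGF3-AS1 (ENSG00000249592, chr4:760202-781866, minus strand) faces PCGF3, a RING finger protein of variant Polycomb complexes. It was at 3.23 and 2.48 CPM in the controls and at 1.08 and 1.61, 2.73 and 2.23, and 1.39 and 1.56 with CX-5461. RBI2 gave 2.73 and 2.78, 2.99 and 2.51, and 3.13 and 3.41. The CX-5461 libraries of 10 and 120 min lay below all others. The change with CX-5461 at 10 min was −1.09 ± 0.25 (adjusted p = 0.0324), lost without each of 11 libraries (adjusted p from 0.0407, where the fold fell short, to 0.239). RBI2 was 1.15 ± 0.24 above CX-5461 at 120 min (adjusted p = 0.0146), lost without each of 4 (adjusted p from 0.0634 to 0.0774), and 1.03 above it at 10 min, just outside the threshold (adjusted p = 0.0516). PCGF3 stayed between 37.2 and 49.3 CPM.

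LACTB2-AS1, facing a mitochondrial endoribonuclease gene, had 18 and 26 reads in the controls, 0 and 3 with CX-5461 at 10 min and between 8 and 32 in the other libraries. Over the group the controls were 18.7-fold higher (95% interval 6.0 to 94.3, exact binomial, for counting error only), and edgeR gave an adjusted p of 0.0092, or 0.0627 without CX-5461 10 min replicate 1. LACTB2 changed by −0.07 (adjusted p = 0.717). Between the compounds at 10 min it had 31 reads with RBI2 against the 3 with CX-5461, a ratio of 11.6 (95% interval 3.61 to 59.1), with an adjusted p of 0.0383 that missed the threshold without each of 9 libraries (0.0559 to 0.207).

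MSANTD2-AS1 rose from 0.932 and 1.52 CPM to 2.91 and 4.28 with CX-5461 at 10 min and was between 0.827 and 1.96 in all other treated libraries. The change was 1.57 ± 0.34 (adjusted p = 0.0266), lost without CX-5461 10 min replicate 1 (0.0579) or 2 (0.169). MAP3K4-AS1, facing a stress kinase gene, rose from 0.373 and 0.399 to 1.13 and 1.5 CPM, or 1.75 ± 0.38 (adjusted p = 0.0263), lost without each of 3 libraries (adjusted p from 0.0748 to 0.161). Both start within 1000 bases of the start of their sense gene, at 282 and 615 bases, and MSANTD2 and MAP3K4 changed by −0.22 (adjusted p = 0.297) and −0.24 (adjusted p = 0.5).

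Compared directly at the same dose and labelled time, RBI2 stood above CX-5461 in every member that was called. There were 2 at 10 min, GABPB1-AS1 and LACTB2-AS1 (0.465%, where 1.04% of all genes and 0.635% in that direction were called), 0 at 30 min (0.013% of all genes) and 12 at 120 min (2.79%, where 1.67% of all genes and 1.27% in that direction were). Other lncRNAs were called more often, 1.31% of them at 10 min and 5.3% at 120 min. Of those calls 20 of 23 and 90 of 93 were higher with RBI2. At 30 min DESeq2 called none and 8 members passed the unadjusted p with the fold, where 1.45% of all genes did. Beside the pairs above, the 120 min calls were GABPB1-AS1, SLC26A4-AS1, CDKN2B-AS1, CYP1B1-AS1, LIMD1-AS1, PTGES2-AS1, ITGA9-AS1, TMEM9B-AS1 and, outside the naming rule, DUT-AS1. The length offset ended the 120 min calls of GABPB1-AS1, CYP1B1-AS1, LIMD1-AS1, PTGES2-AS1, ITGA9-AS1 and DUT-AS1 and both calls at 10 min. DESeq2 ended the 120 min calls of LIMD1-AS1 (adjusted p = 0.155), PTGES2-AS1 (0.0518), CYP1B1-AS1 (0.0764), ITGA9-AS1 (0.111) and TMEM9B-AS1 (0.0963). The fit of only the 4 libraries ended those of LIMD1-AS1, CYP1B1-AS1, ITGA9-AS1, TMEM9B-AS1 and DUT-AS1 (edgeR adjusted p from 0.052 to 0.0783) and that of LACTB2-AS1 at 10 min (0.0592). The replicate number as a block ended the calls of PTGES2-AS1 (0.0547) and, at 10 min, LACTB2-AS1 (0.0593), and no filter on low counts that of LIMD1-AS1 (0.114).

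The 120 min count was 2 without CX-5461 120 min replicate 2, RBI2 120 min replicate 1 or RBI2 120 min replicate 2, where 0.279%, 0.182% and 0.0648% of all genes were called. It was 7 without CX-5461 10 min replicate 1 or RBI2 30 min replicate 1 (1.44% and 1.33% of all genes) and 19 without control replicate 2 (2.57%). At 10 min it was 6 without control replicate 1 or 2 (1.5% and 1.49% of all genes), 3 without RBI2 10 min replicate 1 (0.72%) and 0 without RBI2 10 min replicate 2 (0.603%). It was 1 without either library of the CX-5461 10 min, CX-5461 30 min, RBI2 30 min or RBI2 120 min groups, where 0.642% to 0.979% of all genes were called.

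GABPB1-AS1 (ENSG00000244879, chr15:50354944-50372202, plus strand), facing the gene of the β subunit of the ETS factor GABP with starts 464 bases apart, was the one called member with a mean of at least 5 CPM over all 14 libraries. Controls were at 35.7 and 39.6 CPM, CX-5461 at 21.1 and 19.3, 26.4 and 27.3, and 22.7 and 21.0, and RBI2 at 40.7 and 41.3, 37.5 and 42.6, and 45.1 and 46.7. All 6 CX-5461 libraries were below all other libraries. Its exons overlap a microRNA gene, MIR4712, on the same strand. CX-5461 lowered it by 0.90 on the log2 scale at 10 min (SE 0.10, adjusted p = 0.000521) and by 0.78 at 120 min (adjusted p = 0.0139, or 0.219 without CX-5461 120 min replicate 2), just short of the fold limit. RBI2 was above CX-5461 by 1.02 ± 0.10 at 10 min (adjusted p = 0.00026) and 1.07 ± 0.10 at 120 min (adjusted p = 0.00206), and the latter was called whichever library was left out. At 10 min the fold dropped to 0.94 without CX-5461 10 min replicate 2 and to 1.00, just under the limit, without RBI2 10 min replicate 2.

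The transcript make-up of GABPB1-AS1 moved as well. Its longest transcript, ENST00000499624 of 16182 bases, held 85% to 91.1% of its reads in the control and CX-5461 libraries and 92.3% to 96.9% in the RBI2 libraries. With an offset for the mean effective transcript length, the differences between compounds were 0.42 (adjusted p = 0.308) at 10 min and 0.26 (adjusted p = 0.329) at 120 min, so the call holds for reads and not for reads per length. GABPB1 was between 37.8 and 63.2 CPM and was not called (0.35, adjusted p = 0.204, and −0.21, adjusted p = 0.293).

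SLC26A4-AS1, opposite the gene of the anion exchanger pendrin, was at 4.78 and 5.58 CPM with RBI2 at 120 min and 2.81 and 1.97 with CX-5461. Controls were at 3.29 and 4.55, and the RBI2 libraries of 10 and 30 min at 1.98 to 2.85. The difference between compounds was 1.10 ± 0.25 (adjusted p = 0.0196), lost without each of 3 libraries (adjusted p from 0.0796 to 0.121), and that of RBI2 from the control was 0.41 (adjusted p = 0.271). The sense gene SLC26A4 stayed at or below 0.618 CPM.

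CDKN2B-AS1, known as ANRIL and for its contact with Polycomb proteins, spans the whole of CDKN2B without sharing exon bases with it. CDKN2B, the gene of the cell cycle inhibitor p15, had no read in any library. It had 10 and 14 reads with RBI2 at 120 min and 2 and 1 with CX-5461, a ratio of 10.9 (95% interval 3.30 to 56.4, counting error only; adjusted p = 0.0168). The controls had 8 and 12 reads. The call was lost without each of 4 libraries (adjusted p from 0.0589 to 0.104), and the gene shares exons with others on its strand.

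The remaining named calls were low and less stable. CYP1B1-AS1 was at 2.48 and 3.04 CPM with RBI2 at 120 min and 1.71 and 0.927 with CX-5461 (1.03 ± 0.29, adjusted p = 0.0387), beside controls of 2.18 and 2.16, and its exons overlap RNU6-951P and RPL7P12 on the same strand. LIMD1-AS1 was at 1.3 and 1.45 against 0.693 and 0.521, PTGES2-AS1 at 2.42 and 3.12 against 1.22 and 1.04, ITGA9-AS1 at 2.30 and 2.32 against 1.3 and 0.869 and TMEM9B-AS1 at 1.36 and 1.23 against 0.326 and 0.579. In these 5, chosen as called here, both RBI2 libraries lay above both CX-5461 libraries, as they did in 30.7% of all genes. The calls of these 5 were lost without each of 8, 7, 9, 11 and 6 of the 14 libraries in that order. LIMD1, PTGES2 and TMEM9B were expressed, at 45.9 to 70.4, 72.8 to 137 and 29.8 to 41.4 CPM, while ITGA9 stayed at or below 0.269.

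Over the 362 pairs with both genes tested, Pearson's r between the log2 fold changes lay between 0.03 and 0.17 in the 9 comparisons, and 49.2% to 59.7% of pairs had the same sign. In the 66 pairs whose antisense RNA averaged at least 5 CPM, r lay between 0.07 and 0.37 and the same sign in 42.4% to 68.2%, with the highest values, 0.37 and 68.2%, for RBI2 at 120 min. The Spearman rank correlation lay between 0.01 and 0.20 over all pairs and between −0.07 and 0.47 over these 66. It was highest for RBI2 at 120 min over these 66, and over all pairs for CX-5461 at 30 min (0.203, with 0.202 for RBI2 at 120 min). The pairs share libraries, and the 6 comparisons with the control share its libraries. Of the 30 calls, made in 25 members, 23 had a tested sense gene. It was called in the same direction in 2, FBXL19 with RBI2 at 120 min and KCTD21 with CX-5461 at 10 min. Of the 358 tested sense genes RBI2 changed 2 (0.559%), 0 and 7 (1.96%) at the 3 times, where 0.0778%, 0.0389% and 1.82% of all genes were called. CX-5461 changed 13 of them (3.63%, where 1.64% of all genes were) at 10 min and 0 later.

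**Figure D5:**
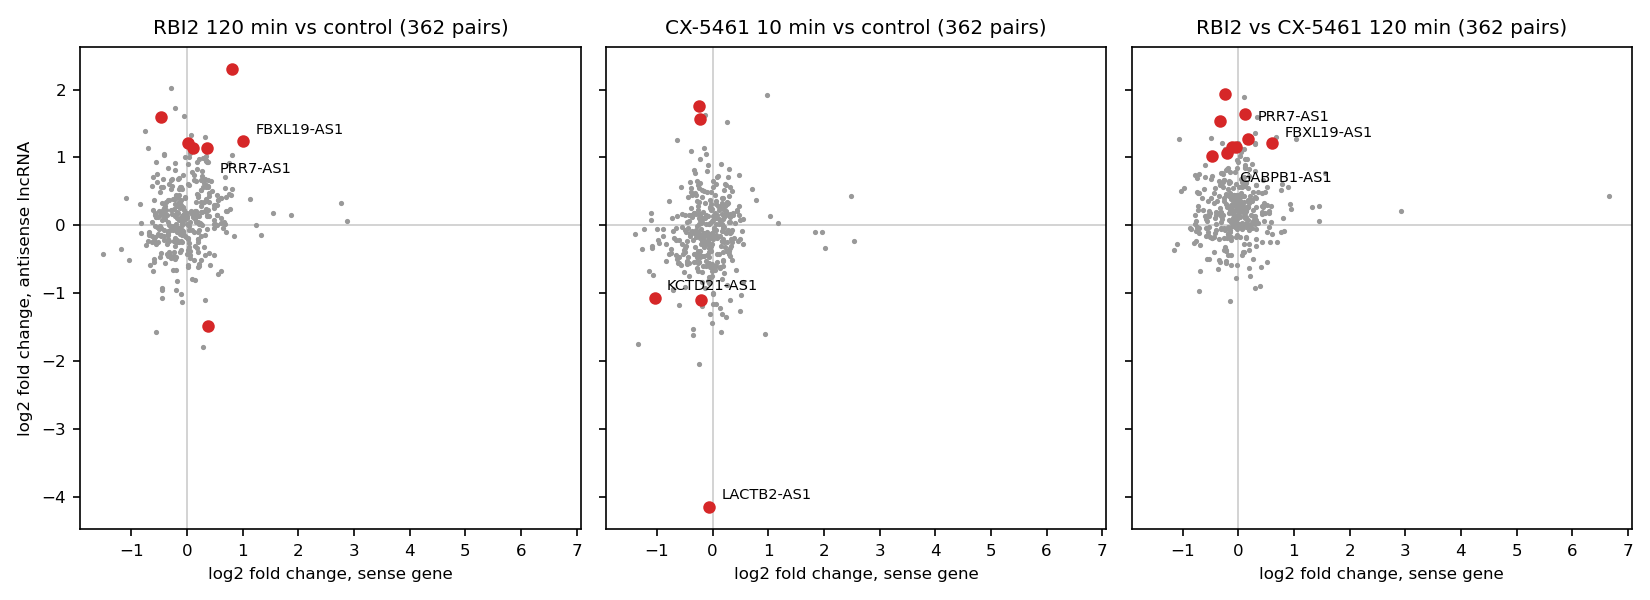
Log2 fold change of the antisense lncRNA (vertical axis) against that of its sense gene (horizontal axis) for 362 pairs in which both were tested, in 3 comparisons; red marks called antisense lncRNAs, and called members with an untested sense gene are not drawn. Most red points stand near 0 on the horizontal axis, apart from FBXL19-AS1 (1.01) and KCTD21-AS1 (−1.04).

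Some sense genes were called while their antisense partner was not. BHLHE40, a transcriptional repressor of the early response, was at 19.9 and 21.2 CPM in the controls and 58.3 and 59.1 with RBI2 at 10 min (1.51 ± 0.10, adjusted p = 0.000104), while BHLHE40-AS1 lay between 0.232 and 0.726 CPM and changed by −0.20 ± 0.50 (adjusted p = 0.883). IRF1, the interferon regulatory factor, went from 22.7 and 16.8 to 45.8 and 43.1 CPM with CX-5461 at 10 min (1.17 ± 0.13, adjusted p = 0.000659), and IRF1-AS1 from 1.18 and 1.12 to 1.19 and 1.17 (0.03 ± 0.28, adjusted p = 0.964). Without control replicate 2 the IRF1 change was 0.96, under the fold limit, while BHLHE40 was called whichever library was left out. Both RBI2 10 min libraries of BHLHE40 and both CX-5461 10 min libraries of IRF1 lay above the controls, as in 18.2% and 23% of all genes. These 2 sense genes were picked as called, and the IRF1-AS1 groups overlapped.

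PHLDA1 and PHLDA1-AS1 both had negative changes with CX-5461 at 10 min, of which the antisense one did not pass the test. PHLDA1 changed by −1.33 ± 0.07 (adjusted p = 3.06e-06) and was called whichever library was left out. PHLDA1-AS1, with 17 and 10 reads in the controls and 5 and 5 with CX-5461, changed by −1.75 ± 0.47 (adjusted p = 0.0652). Of the 569 exonic bases of PHLDA1-AS1, 553 lie inside exons of PHLDA1 on the other strand.

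SOX9, the transcription factor, was called lower with both compounds at 10 min, from 107 and 162 CPM to 64.9 and 67.3 with RBI2 (−1.02, adjusted p = 0.035) and 62.5 and 64.1 with CX-5461 (−1.09, adjusted p = 0.00395). Without control replicate 2 these were −0.72 and −0.78, under the fold limit, and the calls were lost without each of 10 and 2 libraries. SOX9-AS1 gave −0.48 ± 0.37 (adjusted p = 0.61) and −0.31 ± 0.36 (adjusted p = 0.663). HIF1A, the hypoxia factor, went with RBI2 at 120 min from 173 and 365 to 122 and 141 CPM (−1.04 ± 0.28, adjusted p = 0.0311), with HIF1A-AS3 at 16.2 and 27.5 and then 15.8 and 14.9 (−0.50 ± 0.20, adjusted p = 0.104). For both HIF1A strands the high value was control replicate 2, and without it the HIF1A change was −0.42 (adjusted p = 0.129) and that of HIF1A-AS3 −0.10 (adjusted p = 0.709). The HIF1A call was lost without each of 9 libraries. CYP1B1, a cytochrome P450 induced through the aryl hydrocarbon receptor, was at 230 and 220 CPM with RBI2 and 101 and 104 with CX-5461 at 10 min (1.14 ± 0.12, adjusted p = 0.000379), where CYP1B1-AS1 differed by 0.00 ± 0.29.

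The lists of members grouped by what is known of them, or of their sense gene, held few calls. Of the 33 well studied antisense lncRNAs 24 were tested and 1 was called, CDKN2B-AS1, for RBI2 against CX-5461 at 120 min (4.17%, where 1.67% of all genes and 5.3% of other lncRNAs were called). Their median change with CX-5461 at 10 min was −0.23, with 3 of 24 above 0, beside −0.04 over all genes and −0.23 over other lncRNAs, and it ran up to 0.15 over the 9 comparisons. ZEB1-AS1, opposite the gene of an EMT transcription factor, went from 5.90 and 8.47 to 3.83 and 3.61 CPM there, a drop of 0.94 on the log2 scale (adjusted p = 0.0201), short of the fold limit, and ZEB1 changed by −0.71 (adjusted p = 0.143). PSMA3-AS1 fell by 0.60 (adjusted p = 0.00423) and MCM3AP-AS1 by 0.76 (adjusted p = 0.046) in that comparison. Without control replicate 2 the adjusted p was 0.0903 for ZEB1-AS1, 0.00721 for PSMA3-AS1 and 0.225 for MCM3AP-AS1, which kept an adjusted p under 0.05 in 3 of the 14 leave-outs. Outside the list, THUMPD3-AS1, one of the 10 most abundant members, fell by 0.45 there (adjusted p = 0.0114). Without CX-5461 10 min replicate 1 or 2 the adjusted p was 0.122 or 0.138 for ZEB1-AS1, 0.234 or 0.187 for MCM3AP-AS1 and 0.0782 or 0.126 for THUMPD3-AS1, and without replicate 1 it was 0.0531 for PSMA3-AS1.

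Of 10 members antisense to early response genes 5 were tested and none was called by edgeR, and their median ran from −0.57 to 0.55 over the 9 comparisons. Of 16 antisense to ribosome and Pol I genes 7 were tested and none called, and their median ran from −0.47 with CX-5461 at 10 min, where all 7 were below the control, to 0.20 for RBI2 over CX-5461 at 10 min. With CX-5461 at 30 and 120 min it was −0.07 both times, with 3 and 2 of 7 above 0. None of the 21 tested of 60 antisense to zinc finger genes was called, nor EXOSC10-AS1 or PAN3-AS1, the 2 tested of 11 antisense to RNA decay and poly(A) genes. Of 13 members in the HOX clusters 6 had a read and 0 passed the filter. Of all genes at most 1.82% were called in any of the 9 comparisons, so the absence of calls in these small lists is not read as a result about them. The 73 members at 5 CPM or more held no call against the control. With RBI2 at 120 min and CX-5461 at 10 min, 1.82% and 1.64% of all genes were called, and 3.04% and 4.73% of other lncRNAs at that level. The median of these 73 with CX-5461 at 10 min was −0.23, with 17 of 73 (23.3%) above 0. Other lncRNAs at that level had a median of −0.26 with 22.6% above 0, and of all genes 45.9% were above 0.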

How the data were processed

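RNA-seq libraries of MDA-MB-231 cells were prepared with a stranded poly(A) kit. As the study and the submitters' processing notes state, the authors ran Salmon 1.3.0 against GRCh38 transcripts on the reads left once rDNA reads had been removed. The deposited files hold, per transcript and library, the authors' estimated counts, which are neither normalized nor rounded, their TPM values, scaled for length, and effective lengths. Sense gene orientation, exon overlap and start distances came from GENCODE release 44, which had an entry for 225662 of 228754 transcripts; the other 3092 (1.03% to 1.13% of reads) were left out.

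Estimated counts were summed per gene and rounded to whole numbers. Genes were kept with edgeR's filterByExpr (minimum count 10), scaled by TMM and tested with glmQLFit and glmQLFTest (edgeR 4.0.16, limma 3.58.1, R 4.3.3) in 1 fit of 14 libraries and 7 groups, with Benjamini-Hochberg adjustment over 15426 genes. The common coefficient of variation was 12.3%. CPM are TMM-scaled. Fold changes are on the log2 scale with a prior count, and errors are SE. DESeq2 1.42.0, DESeq2 size factors, no filter, the replicate number as a block, an effective length offset, fits of 4 libraries, unadjusted p and leaving out each library were the alternatives.

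Named members were the 20 called members with the highest mean CPM in the higher group, the 10 with the highest mean CPM, tested members of the well studied and early response lists, and those just outside the thresholds. PHLDA1-AS1 was named outside this rule, as the partner of a called sense gene. The members and lists were chosen with earlier results of these data known. Times are those of the sample labels. Promoter windows came from a RefSeq table.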

Additional observations from a re-analysis of the deposited data

Results flagged for a closer look

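In 5 cases both libraries of one treatment time lay above both controls and both libraries of another time of the same compound lay below them, in a member called somewhere. The differences between the times were not tested. Of all genes, both RBI2 libraries lay below both controls in 16.2% at 10 min and above them in 27.2% at 120 min. The share of all genes that did both is not given, so the 5 cases have no baseline. PRR7-AS1 stood below the control with RBI2 at 10 min (log2 −0.57) and above it at 30 min (0.68) and 120 min (1.13), so that the times differed by 1.25 and 1.71. SLC26A4-AS1 was below the control with RBI2 at 10 min (−0.72) and 30 min (−0.67) and above it at 120 min (0.41), with differences of 1.13 and 1.08. FBXL19-AS1 was below the control with CX-5461 at 10 min (−0.50) and above it at 30 min (0.46), a difference of 0.97. PRR7-AS1 and FBXL19-AS1 thus had their lowest CX-5461 values at 10 min and their highest at 30 min.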

How the results depend on the processing

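None of the 30 calls changed direction. DESeq2 kept 18, no filter on low counts 29, DESeq2 size factors in edgeR 30, the length offset 10 and fits of only the 4 libraries compared 8, and 2 calls stood whichever library was left out. In the order RBI2 10, 30 and 120 min vs control, CX-5461 10, 30 and 120 min vs control and RBI2 vs CX-5461 at 10, 30 and 120 min, edgeR called 0, 0, 11, 5, 0, 0, 2, 0 and 12 members. With unadjusted p there were 13, 14, 21, 29, 18, 14, 24, 8 and 31. Between the compounds at 10 and 120 min, 471 and 566 of the 15426 genes passed the same limits. Without the filter there were 5, 6, 16, 17, 2, 4, 7, 1 and 18. No share of all genes stands beside these unfiltered counts, so they are not read as a result about members. DESeq2 gave 7 for RBI2 120 min and 2 for CX-5461 10 min vs control, and fits of 4 libraries gave 0 in both. The length offset gave 1 for RBI2 120 min vs control. Between the compounds it gave 0 at 10 min and 7 at 120 min, of which 6 were higher with RBI2 and 1 lower. Without it all 12 were higher. No share of all genes stands here beside the DESeq2 and length offset counts, so they are not read as results about members. Leaving out each library gave 0 to 15, 0 to 20, 0 to 26, 0 to 28, 0 to 22, 0 to 12, 0 to 6, 0 to 0 and 2 to 19. The causes were not tested.

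With the replicate number as a block, 26 of the 30 calls were kept, and the count for RBI2 vs CX-5461 at 10 min was 1 in place of 2. Correlations of same-numbered deviations over 21 pairs of groups ran from −0.179 to 0.18 with 3 over 0.1, so no strong pairing common to all groups was seen. With 2 libraries per group they cannot exclude a pairing in some groups or genes.

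Of the 430 tested members 178 averaged under 1 CPM, where single reads weigh on a fold change.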
